A study of Mus musculus with 26 samples.

Results

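Ckm-high and Ckm-low primary osteosarcomas are the 5 tumours with the highest and the 5 with the lowest intensity of Ckm, the muscle isoform of creatine kinase, among 15 mouse primary osteosarcomas, each hybridised to its own array. Osteosarcoma is a malignant tumour of the bone-forming lineage. The series holds 26 arrays in all, the others being 3 cultures of in vitro differentiated osteoblasts from wild-type mice, 4 osteosarcoma cell lines and 4 secondary tumours. All tumours came from a mouse model for which the labels used here give no genotype, strain, sex, age or treatment, and they do not say which tissue lay around each tumour when it was cut out. Of the secondary tumours, 3 are labelled as transplants. For number 66 the source label speaks of tissue from a tumour that came out of a cell line, while the title calls the sample a cell line. The labels do not say that equal numbers mark the same tumour.

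The ranking value was the intensity of the brighter of the 2 Ckm probe sets, by its mean across the 26 arrays. It was 4402 in tumour 12, 3952 in tumour 179, 3474 in tumour 29, 2346 in tumour 182 and 779 in tumour 94, which make up the Ckm-high set. It was 147 in tumour 331, 112 in tumour 66, 84.8 in tumour 330, 79.8 in tumour 183 and 53.8 in tumour 119, the Ckm-low set. Both limits cut through a graded series: the first tumour outside the Ckm-high set, 176, had 436, and the first outside the Ckm-low set, 353, had 166. The osteoblast cultures had 25.9 to 54.8, so tumour 119 lay within their range. Ckm chose the sets and is no result. A ranking by the mean of 14 other skeletal muscle markers gave the same 5 highest and the same 5 lowest tumours, so levels of muscle genes describe the sets rather than test them.

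**Figure D1:**
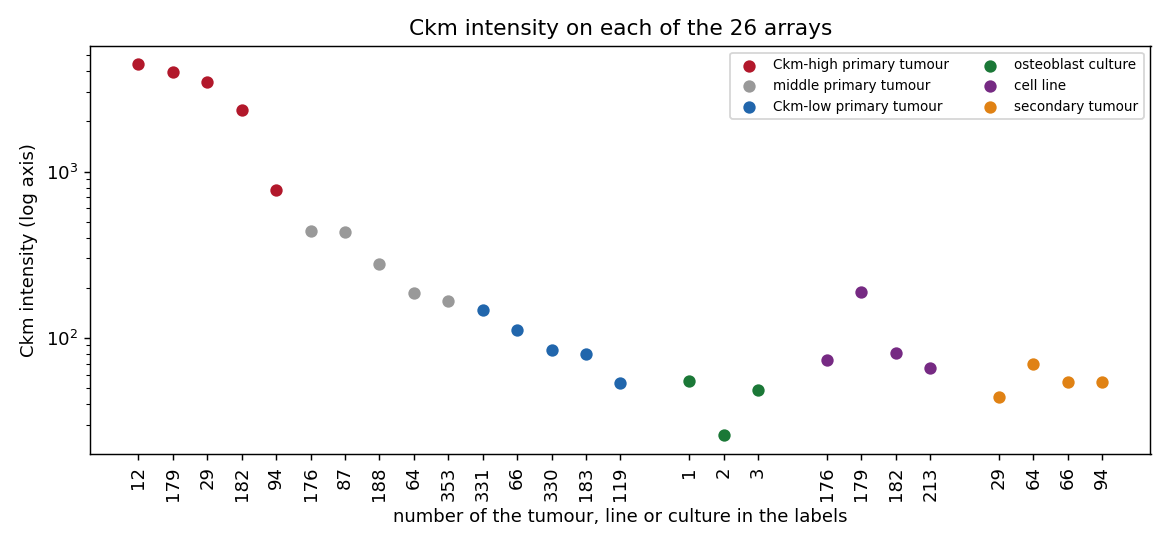
Ckm intensity (log axis) on each of the 26 arrays, 1 point per array, with primary tumours in order of Ckm and coloured by set. The Ckm-high tumours span 779 to 4402, the Ckm-low tumours 53.8 to 147, and no other sample type exceeds the 189 of cell line 179.

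Skeletal muscle fibres contract when thick filaments of myosin pull on thin filaments of actin, in units bounded by Z discs, on calcium released from the sarcoplasmic reticulum through the ryanodine receptor and taken back by the pump Atp2a1. Fast fibres use one set of myosin, troponin and pump genes and slow fibres another, and embryonic or regenerating fibres use a further set together with regulators such as Myog. Bone tumours can grow into the muscle that lies on bone. Most muscle genes are not counted in the osteoblast programme, though some, such as Actn3, also had signal in the osteoblast cultures here. The comparison asks how far a tumour's profile differs with the muscle transcripts in it.

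Of 12886 genes tested besides Ckm, 80 (0.621%) were called higher in the Ckm-high tumours, at an adjusted p below 0.05 and at least 2-fold in limma, and 0 (0%) were called lower. At an unadjusted p under 0.05 the same limma fit had 545 genes higher and 160 lower. The median difference over all genes was 0.03 on the log2 scale, on which all levels and differences below are given unless an intensity is named. The 80 differences ran from 1.06 to 6.36 with a median of 2.63, and 20 of them were 16-fold or more. For 76 of the 80 the lowest Ckm-high tumour lay above the highest Ckm-low tumour, against 1.32% of all genes that were separated in this direction. The 5 tumours in the middle of the ranking, which entered neither set, had a mean between the means of both sets for 78 of the 80. The share of all genes with such a mean was not taken, and these tumours lie between the sets in Ckm by the rule. Because the tumours were taken from the ends of a ranking by a muscle gene, the counts and p-values for muscle genes restate that choice and no support is drawn from them. In whole tumours more muscle cells and more RNA per muscle cell cannot be told apart, and the source of the muscle transcripts was not tested.

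Several facts of the arrays bear on these values. Array medians were 52.1 to 58.8 in the Ckm-high set and 50.5 to 56.0 in the Ckm-low set. The ratio of bacterial control transcripts bioB to bioC parted the 15 primary tumour arrays into a set of 7 with ratios of 0.390 to 0.426 and a set of 8 with ratios of 1.04 to 1.16, and each held tumours of both Ckm sets. The Gapdh 5′ to 3′ ratio, a measure of RNA length, was 0.656 to 0.845 in the first and 0.909 to 1.03 in the other. Within the first, with 3 Ckm-high and 2 Ckm-low tumours, the 80 genes were all above 0 with a median of 2.53, limma called 0 genes, and 531 genes were higher and 326 lower at an unadjusted p under 0.05, including 78 of the 80. Within the other, with 2 Ckm-high and 3 Ckm-low tumours, the 80 were all above 0 with a median of 2.87, and 40 genes were called higher and 0 lower, with 418 higher and 199 lower at an unadjusted p under 0.05. The 80 genes were called on these same arrays, so their signs and p-values within each control set are no separate check. The labels do not say that the tumours came from separate animals, so the spread may be in part technical.

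Adult muscle genes made up most of what was called: 50 of the 80 stood in 1 of 8 lists of adult muscle genes, of which 101 of 115 listed genes were tested. The median difference of the 101 was 1.82, and 96 of them were above 0. These lists were drawn up with earlier results of these arrays known.

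Of 10 genes of the thick filament and M band tested, 8 were called higher, with a median difference of 3.64. Mylpf, the fast regulatory light chain of myosin, was 11.41, 12.43, 12.08, 11.99 and 9.41 in the Ckm-high tumours and 6.93, 6.72, 4.54, 5.45 and 3.91 in the Ckm-low tumours, in the order 12, 179, 29, 182 and 94 and the order 331, 66, 330, 183 and 119 that is kept below. Tumour 94 was the lowest of the Ckm-high set, and tumours 331 and 66 stood above the other Ckm-low tumours, but the sets did not overlap and differed by 5.96 (95% confidence interval 4.52 to 7.39). Myh1, the heavy chain of type IIx fast fibres, was 12.52, 11.45, 12.69, 10.22 and 11.39 in the Ckm-high tumours and 7.78, 8.30, 4.67, 5.03 and 4.15 in the Ckm-low tumours, a difference of 5.67 (95% confidence interval 3.91 to 7.42). Myh2, the heavy chain of type IIa fast fibres, was 10.04, 12.23, 11.12, 12.14 and 10.01 in the Ckm-high tumours and 6.99, 7.73, 4.68, 5.67 and 4.48 in the Ckm-low tumours, a difference of 5.20 (95% confidence interval 3.69 to 6.71). Myh1 and Myh2 ordered the Ckm-high tumours differently: Myh1 was highest in tumours 29 and 12 and lowest in 182, whereas Myh2 was highest in 179 and 182 and lowest in 94 and 12. Myl1, an alkali light chain of fast myosin, differed by 5.45, Mybpc2, the fast myosin-binding protein C, by 4.24, and Myom2 and Myom1, proteins of the M band that ties myosin filaments together, by 3.05 and 2.03. The heavy chain genes are close copies of each other, and signal shared between their probe sets was not tested.

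Myh4, the heavy chain of the fastest type IIb fibres, was 1 of the 2 thick filament genes not called, at 7.10, 3.64, 6.40, 3.64 and 4.69 in the Ckm-high tumours and 3.72, 3.64, 3.64, 3.64 and 3.64 in the Ckm-low tumours. On this probe set it stood well above the floor of 3.64, the level to which dim values were raised, only in tumours 12 and 29 of the Ckm-high set, and it reached 6.56 in tumour 188 of the middle set. Its difference was 1.44 (95% confidence interval 0.02 to 2.85), with a limma adjusted p of 0.9. The probe sets disagreed: a second one had intensities of 25.8 to 57.6 in the Ckm-high set and 9.58 to 22.7 in the Ckm-low set, which did not overlap.

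Of 11 thin filament genes tested, 8 were called higher, with a median of 2.96. Tnnc2, the calcium-binding subunit of fast troponin, had the largest difference of all 12886 genes and was 11.62, 11.74, 11.30, 11.32 and 9.38 in the Ckm-high tumours and 5.99, 5.40, 3.64, 4.92 and 3.64 in the Ckm-low tumours. All 5 Ckm-high tumours lay above all 5 Ckm-low tumours by more than 3 units, and the difference was 6.36 (95% confidence interval 5.15 to 7.56). Tnni2 and Tnnt3, the inhibitory and tropomyosin-binding subunits of the same complex, differed by 5.96 and 5.71. Acta1, the actin of skeletal muscle thin filaments, was 12.29, 12.86, 13.23, 12.41 and 11.02 in the Ckm-high tumours and 8.72, 8.55, 8.11, 8.27 and 7.20 in the Ckm-low tumours. Again tumour 94 was lowest in its set and the sets were apart, with a difference of 4.19 (95% confidence interval 3.23 to 5.15). Neb, the giant protein that runs along the thin filament, differed by 4.66, and Lmod2 and Tmod4, which cap or start actin filaments, by 2.96 and 2.07.

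Tpm1 and Tpm2, tropomyosins that are also made by many cells outside muscle, were the thin filament genes with negative differences, -0.58 and -0.33, neither called. Their probe sets disagreed. A second Tpm2 probe set had intensities of 336 to 775 in the Ckm-high set against 130 to 349 in the Ckm-low set, while the brightest, which represents the gene, had 1034 to 1539 against 952 to 2262. A dim Tpm1 probe set had 28.0 to 114 against 12.9 to 22.6 and did separate the sets, while the representing one had 1212 to 1981 against 1805 to 3067.

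Of 15 genes of the Z disc and titin tested, 13 were called higher, with a median of 2.78. Ttn, the titin spring that spans from Z disc to M band, was 11.27, 10.95, 10.96, 10.71 and 9.13 in the Ckm-high tumours and 6.55, 7.17, 5.49, 6.17 and 5.20 in the Ckm-low tumours, a difference of 4.49 (95% confidence interval 3.44 to 5.53). Myot, which binds actin and alpha-actinin at the Z disc, differed by 4.48, Actn2 and Actn3, the muscle alpha-actinins that anchor thin filaments, by 3.47 and 4.22, Tcap, which caps titin, by 3.48, and Ankrd23, a titin-binding stress protein, by 4.10. Des, the intermediate filament that links Z discs, was 9.69, 10.93, 10.58, 10.88 and 8.93 in the Ckm-high tumours and 7.08, 6.59, 5.89, 6.67 and 5.92 in the Ckm-low tumours and differed by 3.77.

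Of 15 genes of calcium handling and excitation tested, 9 were called higher, with a median of 2.08. Ryr1, the calcium release channel of skeletal muscle, was 9.52, 9.62, 9.27, 9.08 and 7.79 in the Ckm-high tumours and 4.78, 4.41, 3.64, 4.35 and 3.64 in the Ckm-low tumours, a difference of 4.89 (95% confidence interval 3.97 to 5.82). Atp2a1, the fast fibre calcium pump, was 12.02, 12.03, 11.83, 11.12 and 9.74 in the Ckm-high tumours and 7.68, 7.13, 6.50, 6.81 and 6.60 in the Ckm-low tumours, a difference of 4.40 (95% confidence interval 3.45 to 5.36). Both put tumour 94 lowest among the Ckm-high tumours with no overlap. Pvalb, the calcium buffer of fast fibres, differed by 3.33. It was highest in tumour 12 at 10.30 and 8.95 to 9.45 in the other 4, against 5.63 to 6.56 in the Ckm-low set. Cacna1s and Cacng1, subunits of the voltage sensor in the transverse tubule, differed by 2.78 and 2.78. All 5 Ckm-low tumours were at the floor for Cacng1, so its difference is a lower bound, at least 6.88-fold. Casq1, the calcium store protein, differed by 2.08. Sln, a small inhibitor of the pump, differed by 2.61 (95% confidence interval 1.36 to 3.86) without being called, at a limma adjusted p of 0.07.

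Of 21 genes of energy metabolism tested, 8 were called higher, with a median of 1.82. Mb, the oxygen store myoglobin, was 12.01, 12.26, 12.60, 11.75 and 10.16 in the Ckm-high tumours and 7.36, 7.81, 5.29, 5.18 and 3.65 in the Ckm-low tumours, a difference of 5.90 (95% confidence interval 4.36 to 7.44). Tumour 119 was next to the floor while tumours 331 and 66 stood at 7.36 and 7.81, so the Ckm-low set was itself spread over more than 4 units. Ckmt2, the mitochondrial creatine kinase of muscle, differed by 3.98, Pgam2 and Pygm, muscle isoforms of a glycolytic mutase and of glycogen phosphorylase, by 3.04 and 1.90, and Cox6a2, Cox8b and Cox7a1, heart and muscle isoforms of cytochrome oxidase subunits, by 2.47, 2.35 and 2.20. Of 48 genes for subunits of the respiratory chain 0 were called, the median was 0.05, and the differences ran from -0.22 to 0.45. Of 23 genes of the citric acid cycle and fat oxidation 0 were called, with a median of 0.21. Eno3, the muscle enolase, had a difference of 2.41 and Pdk4, a kinase that shuts pyruvate out of oxidation, of 2.16, and neither was called, at limma adjusted p-values of 0.0938 and 0.854. Pdk4 was 8.14, 8.13, 4.01, 8.42 and 10.82 in the Ckm-low set against 9.11 to 10.75 in the Ckm-high set. Tumours 331, 66, 330 and 183 lay below every Ckm-high tumour and tumour 119 above them all, and the difference without tumour 330 was 1.19.

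Of 9 genes of muscle atrophy and turnover 4 were called higher, with a median of 1.21. Klhl41, a sarcomere-associated Kelch protein, differed by 4.10, Trim54, a ring-finger protein of the sarcomere, by 2.61, Klhl40 by 1.50 and Asb2 by 1.21. Fbxo32 and Trim63, the ubiquitin ligases induced in wasting muscle, had differences of 0.76 and 1.63 and were not called. Of 10 genes of the muscle membrane and synapse 0 were called, with a median of 0.64, and all 10 were above 0. Without tumour 330 limma called 1 of them, Popdc3, a Popeye domain membrane protein of muscle, at 1.26 with an adjusted p of 0.0114, against 0.98 and 0.34 with it. Cav3, the caveolin of muscle membranes, had the largest difference there at 1.59 (95% confidence interval 0.56 to 2.63). Chrna1, a subunit of the acetylcholine receptor, was 6.51 to 6.80 in the Ckm-high set but highest of the 10 tumours in Ckm-low tumour 330, at 7.39.

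**Figure D2:**
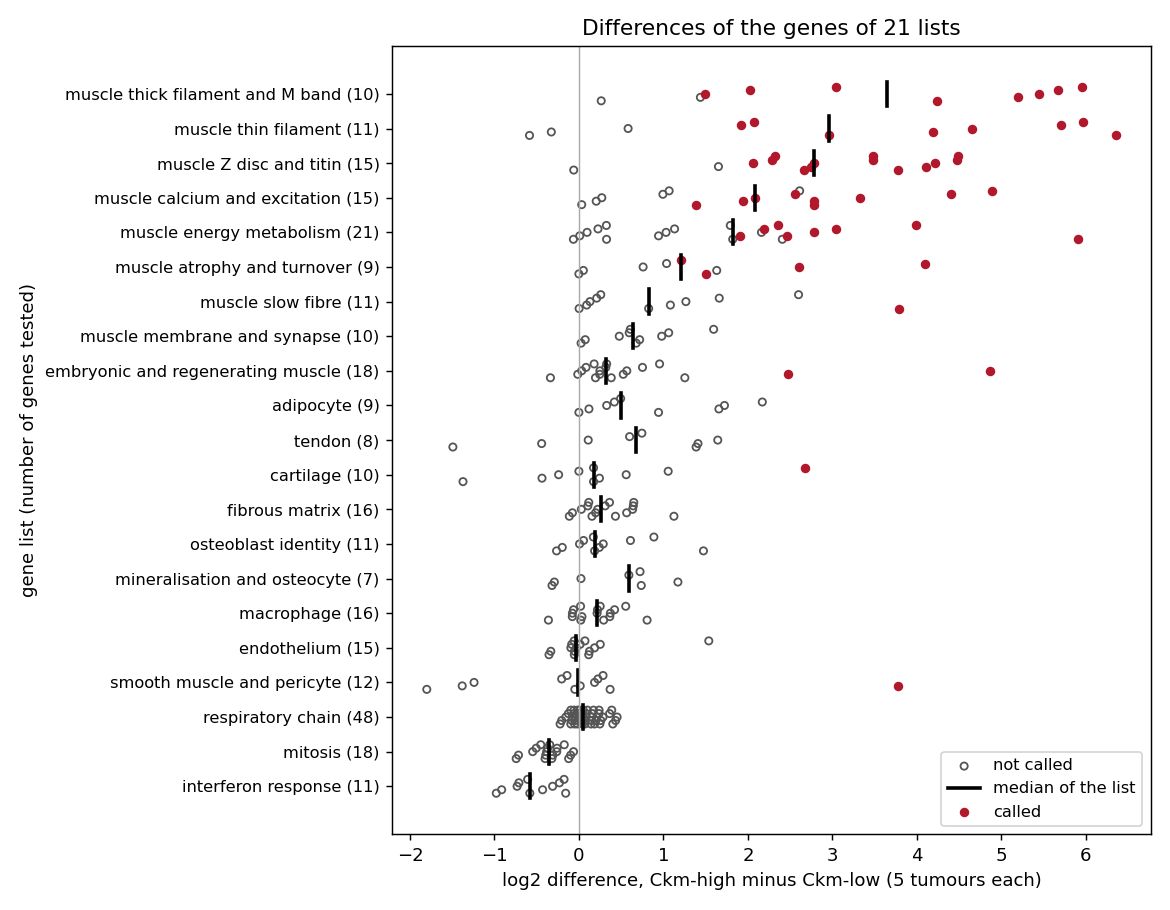
Log2 difference of each tested gene between 5 Ckm-high and 5 Ckm-low tumours, 1 point per gene, by gene list, with called genes filled and the list median as a black bar. The thick filament, thin filament and Z disc lists have medians of 3.64, 2.96 and 2.78, while the lists of respiratory chain, endothelium and smooth muscle genes have medians of 0.05, -0.03 and -0.02.

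The DNA before the start of these genes is shown because muscle regulators bind there as textbook knowledge has it: MyoD and myogenin at the E-box CAGCTG, MEF2 factors at an A/T-rich box and serum response factor at the CArG box. Promoters were taken from RefSeq in build GRCm38.p6, as the 250 bases before the start, for the 61 of 80 called genes that the table held. Each motif reads as the same pattern on both strands, matches had to be exact to it, and different motifs were counted separately even where they overlapped. The following 4, each with 2 matches, are shown, with matches in capitals. They are not typical, since CAGCTG was in 25 of the 61 promoters and a MEF2 box in 13. Acta1 (chr8:123894776-123895025, minus strand) has CAGCTG 221 bases before the start and a CArG box at 73. Klhl41 (chr2:69669870-69670119, plus strand), named above, has CAGCTG at 127 and a MEF2 box at 63. Myoz2 (chr3:123034988-123035237, minus strand), a Z disc protein of slow fibres, has CAGCTG at 12 and a MEF2 box at 33. Pgam2 (chr11:5803797-5804046, minus strand) has CAGCTG at 125 and a MEF2 box at 80.
Acta1: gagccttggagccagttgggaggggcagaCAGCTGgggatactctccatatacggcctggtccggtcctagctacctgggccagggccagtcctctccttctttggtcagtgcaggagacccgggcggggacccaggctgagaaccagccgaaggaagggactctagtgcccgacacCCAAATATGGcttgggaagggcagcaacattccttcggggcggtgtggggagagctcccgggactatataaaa
Klhl41: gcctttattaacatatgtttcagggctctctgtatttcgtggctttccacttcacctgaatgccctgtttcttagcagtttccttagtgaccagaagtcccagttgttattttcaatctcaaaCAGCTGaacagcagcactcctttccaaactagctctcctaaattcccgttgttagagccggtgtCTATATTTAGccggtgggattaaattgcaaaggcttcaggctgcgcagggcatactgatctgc
Myoz2: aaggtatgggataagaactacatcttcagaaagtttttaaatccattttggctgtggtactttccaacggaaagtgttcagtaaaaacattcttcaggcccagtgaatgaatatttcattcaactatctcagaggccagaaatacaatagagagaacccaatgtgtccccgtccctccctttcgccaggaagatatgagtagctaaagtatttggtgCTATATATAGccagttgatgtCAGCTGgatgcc
Pgam2: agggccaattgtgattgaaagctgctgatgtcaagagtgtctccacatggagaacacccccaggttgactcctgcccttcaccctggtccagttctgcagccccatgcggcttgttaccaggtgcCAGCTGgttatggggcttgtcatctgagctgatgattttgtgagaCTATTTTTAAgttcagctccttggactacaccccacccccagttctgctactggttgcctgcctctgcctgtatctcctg

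CAGCTG was present in 25 of the 61 promoters (41.0%), against 14.8% of the 10363 tested genes with a promoter and 13.0% of all 32851 promoters of the table. It was present in 18 of 39 (46.2%) among adult muscle genes that were tested and not called. A MEF2 box was present in 13 of the 61 (21.3%) against 2.11% of tested genes and in 4 of 39 (10.3%) uncalled adult muscle genes. A CArG box was present in 5 of the 61 (8.20%) against 1.43% of tested genes and in 3 of 39 (7.69%) uncalled ones. Both CAGCTG and a MEF2 box were in 5 of the 61 (8.20%) against 0.511% of tested genes. These shares describe letters in a window, since the genes were gathered by a muscle ranking, and a match is not a bound site.

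The Ckm-high tumours were not alike in their slow fibre genes. Of 11 slow fibre genes tested, only Myoz2 was called, with a difference of 3.79 (95% confidence interval 2.75 to 4.82), and the median was 0.83. Tnnt1, the slow troponin T, was 4.38, 6.85, 7.23, 7.96 and 4.53 in the Ckm-high tumours and 4.12, 4.97, 6.17, 3.76 and 3.64 in the Ckm-low tumours. It was high in tumours 179, 29 and 182, while tumours 12 and 94 lay within the range of the Ckm-low set. Tnni1, the slow troponin I, repeated this with 6.41, 6.86 and 7.69 in those 3 tumours, 4.73 and 4.56 in tumours 12 and 94, and 4.45 to 5.17 in the Ckm-low set. Tnnc1, the troponin C of slow and heart muscle, was 5.20, 6.10, 7.22, 7.14 and 5.11 in the Ckm-high set and 4.88 to 5.64 in the Ckm-low set. Tumour 12 had the highest Ckm and Pvalb of the 15 primary tumours, yet it had slow troponin levels like those of the Ckm-low tumours. Ankrd2, a stretch-responsive protein of slow fibres, was 6.24, 8.80, 9.76, 8.91 and 6.48 in the Ckm-high set, and 7.67 in Ckm-low tumour 183 against 4.69 to 5.11 in the other 4. Myh7, the slow heavy chain, had a difference of 0.26 (95% confidence interval -0.66 to 1.17), and its highest level was in tumour 176 of the middle set, at 9.07.

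**Figure D3:**
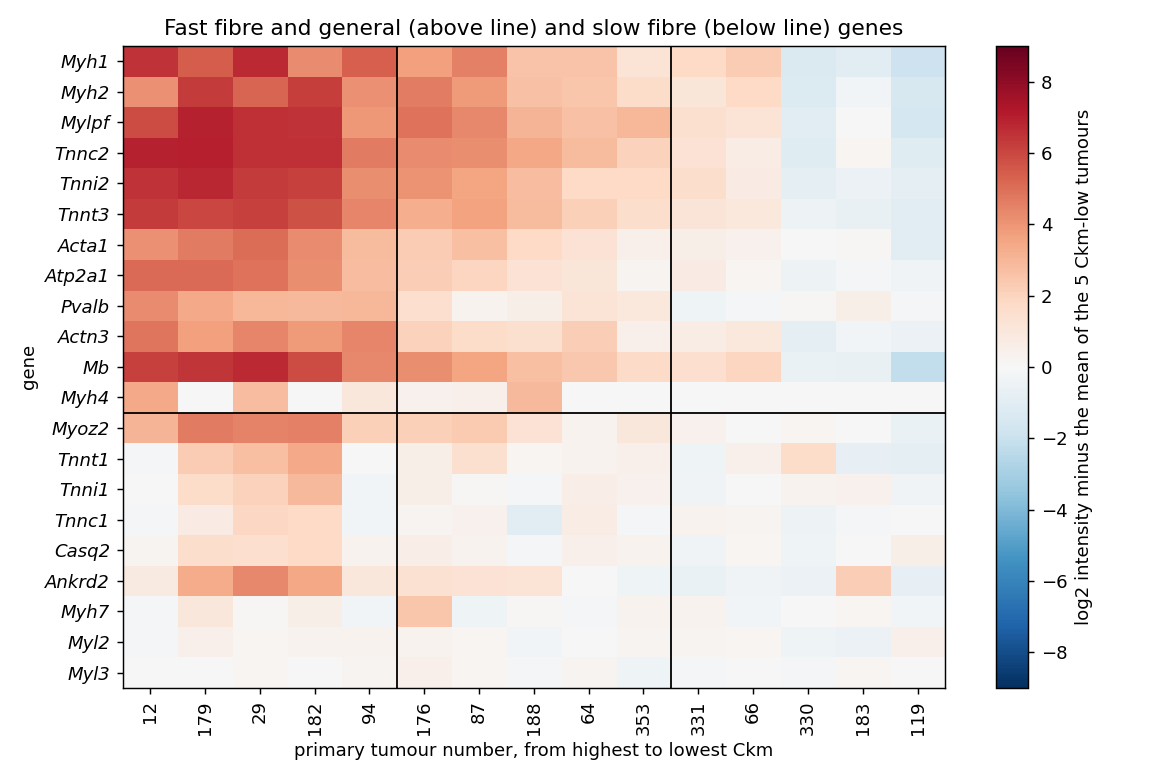
Log2 intensity of fast fibre and general muscle genes (above the line) and slow fibre genes (below it) in the 15 primary tumours, in order of Ckm, as the difference from the mean of the 5 Ckm-low tumours. The genes above the line other than Myh4 grade broadly from red to white along the ranking. Tnnt1, Tnni1 and Tnnc1 are raised in tumours 179, 29 and 182 and not in tumours 12 and 94.

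Of 18 genes of embryonic and regenerating muscle tested, 2 were called higher, Myh8 and Myf6, and the median was 0.32. Myh8, the perinatal heavy chain, was 9.79, 11.15, 7.96, 10.52 and 6.59 in the Ckm-high tumours and 3.64, 5.71, 3.78, 4.94 and 3.64 in the Ckm-low tumours, a difference of 4.86 (95% confidence interval 3.10 to 6.62), which was 5.51 without tumour 94. Myf6, the myogenic factor that stays on in adult fibres, was 5.94, 6.27, 7.22, 5.88 and 6.51 in the Ckm-high tumours and 4.40, 3.79, 3.83, 3.67 and 3.73 in the Ckm-low tumours, a difference of 2.48 (95% confidence interval 1.75 to 3.21). Myh3, the embryonic heavy chain, was at the floor in every Ckm-low tumour and in tumours 12, 29 and 94, and stood at 4.18 in tumour 179 and 5.73 in tumour 182. Myod1, the master regulator of the muscle lineage, was 4.38 to 5.36 in the Ckm-high set and 3.64 to 4.23 in the Ckm-low set, with a difference of 0.95 and a limma adjusted p of 0.337. The mean level over the 18 genes was 6.43 to 6.71 in the Ckm-high set, 6.05 to 6.17 in the middle set and 5.51 to 6.08 in the Ckm-low set.

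Of the 80 called genes, 28 were in no muscle list. Most of those named here are known from muscle or heart, including Smpx, a small protein of the costamere, with a difference of 3.19, Pdlim3, an alpha-actinin-binding LIM protein, with 3.10, Tmem182 with 3.05, Hspb6, a small heat shock protein, with 2.82, Eef1a2, the elongation factor form of muscle and neurons, with 2.75, Mylk4, a kinase of myosin light chain, with 2.43, Mypn, a Z disc protein, with 2.06, Hjv, the iron regulator hemojuvelin, with 1.88, and Rbm24, a splicing factor, with 1.42. Apobec2, a muscle member of the deaminase family, was 6.80, 6.77, 6.02, 5.74 and 4.06 in the Ckm-high set and at the floor in all 5 Ckm-low tumours, at least 4.72-fold higher. The remainder were Myhas, Sh3bgr, Mss51, Ankrd1, Fitm1, Ndrg2, Tmem38a, Synpo2, Asb5, Myom3, Sel1l3, Cap2, A930007A09Rik, Fxyd6, Cilp, Smr2, Prg4 and Hspb7.

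A few of these are not known as sarcomere genes. Prg4, lubricin, the lubricant of joints and tendon sheaths, was 8.81, 8.31, 9.29, 7.80 and 6.11 in the Ckm-high tumours and 5.18, 4.74, 4.78, 7.05 and 5.16 in the Ckm-low tumours. Tumour 94 and Ckm-low tumour 183 made the sets overlap, and the difference was 2.68 (95% confidence interval 1.54 to 3.83) with a limma adjusted p of 0.0271, which was 0.0915 without tumour 330. Cilp, a matrix protein of cartilage intermediate layers, was 8.07, 8.49, 8.64, 8.57 and 7.20 in the Ckm-high tumours and 7.04, 6.06, 5.96, 5.22 and 6.42 in the Ckm-low tumours, with no overlap and a difference of 2.05 (95% confidence interval 1.16 to 2.95) at a limma adjusted p of 0.0322, and of 0.0916 without tumour 330. Fxyd6, a regulator of the sodium pump, was 9.59, 9.74, 9.32, 10.27 and 10.56 in the Ckm-high tumours and 8.37, 7.18, 6.72, 6.96 and 8.94 in the Ckm-low tumours. It was lowest in Ckm-low tumours 330, 183 and 66 and highest in tumour 94, the lowest in Ckm of its set, and the difference of 2.27 (95% confidence interval 1.31 to 3.22) had a limma adjusted p of 0.0245, or 0.0803 without tumour 330.

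Smr2, a gene named for the submaxillary gland, was called at 1.41 (95% confidence interval 0.95 to 1.86) through 1 of its 3 probe sets. The intensities of that probe set were 529, 400, 417, 282 and 206 in the Ckm-high tumours, 131 to 182 in the middle tumours and 117 to 147 in the Ckm-low tumours. The other probe sets were dim and overlapped fully, at 4.22 to 15.9 against 3.60 to 15.9 and at 25.1 to 67.9 against 25.3 to 56.2. With only those probe sets averaged that were bright enough to be kept, the difference was 0.78, which limma did not call, at an adjusted p of 0.0639. What the tracking probe set detects was not tested.

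The calls were tested by leaving out each of the 10 tumours in turn. Of the 80 genes, 67 kept the call each time in limma and 13 lost it at least once, all with the difference still positive. Prg4 kept it only without tumours 94 and 183, Cilp without 94 and 331, Fitm1 without 94 and 330, and Jsrp1, a protein of the calcium release complex, without 94 and 66, with adjusted p-values up to 0.133 otherwise. Fxyd6 lost the call without tumours 12, 94, 179, 182, 66, 183 or 330 (adjusted p 0.0504 to 0.0859), and Hspb7 without 29, 179, 182, 119, 66, 183 or 330 (0.0554 to 0.0775). Mss51 lost it without tumours 12, 29, 179, 182, 119, 330 or 331 (0.0528 to 0.100), and Tmem38a without 12, 29, 179, 182, 66, 183 or 330 (0.0789 to 0.0947). Myom1 lost it without tumours 12, 29, 119, 66, 330 or 331 (0.0575 to 0.0801), Ankrd1 without 182, 119, 66 or 331 (0.0510 to 0.0614) and Srl without 12, 29, 179 or 182 (0.0565 to 0.0626). Cap2 lost it without tumour 182 (0.0505), and A930007A09Rik passed under 2-fold without tumours 29, 119 or 183 (differences of 0.97 to 0.98).

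Outside muscle, the lists of other cell types and processes held 286 tested genes that stood in no muscle list. Called among them were 2, Prg4 of the cartilage list and Hspb7 of the cardiac list, a share near the 0.621% of all 12886 genes. At such a share most short lists hold no call, so a count of 0 in 1 of these lists says little. Hspb7, a small heat shock protein of heart and skeletal muscle, was 9.17, 10.09, 10.72, 9.65 and 8.98 in the Ckm-high tumours and 8.79, 7.11, 5.81, 6.92 and 7.12 in the Ckm-low tumours, a difference of 2.57 (95% confidence interval 1.51 to 3.63). Myh6, the heart heavy chain, was not tested because its probe sets were dim, at 1.58 to 20.6 in the Ckm-high set and 2.53 to 15.3 in the Ckm-low set.

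The fat and tendon lists had raised medians without calls, though 2 of 8 tendon genes were below 0. Of 9 adipocyte genes 0 were called and the median was 0.49. Cd36, a fatty acid transporter also made by muscle and endothelium, had a difference of 2.17 (95% confidence interval 0.93 to 3.41) and a limma adjusted p of 0.226. Fabp4, the fatty acid carrier of adipocytes, was 9.40, 9.03, 9.24, 8.81 and 7.83 in the Ckm-high tumours and 6.95, 6.03, 7.90, 8.73 and 6.10 in the Ckm-low tumours. Adipoq, the adipocyte hormone adiponectin, was 7.27, 5.19, 5.06, 4.56 and 4.64 in the Ckm-high tumours and 3.64, 3.64, 3.64, 3.88 and 3.64 in the Ckm-low tumours. It was clearly highest in tumour 12 and above the floor in all 5 Ckm-high tumours, but only in tumour 183 of the Ckm-low set, with a difference of 1.66 (95% confidence interval 0.65 to 2.66) and a limma adjusted p of 0.29. The mean level over the 9 genes was 6.19 to 7.21 in the Ckm-high set and 5.49 to 6.19 in the Ckm-low set, and its part in the differences was not tested. Of 8 tendon genes 0 were called, 6 were above 0 and the median was 0.67. Comp, a matrix protein of cartilage and tendon, had the largest difference at 1.64 (95% confidence interval 0.85 to 2.43), with a limma adjusted p of 0.0722 (0.207 without tumour 330). Mkx, a transcription factor of tendon cells, was 5.22 to 7.25 in the Ckm-high set and 4.10 to 5.08 in the Ckm-low set, without overlap, at a limma adjusted p of 0.702. Thbs4, a matrix thrombospondin, had a difference of 1.41, or 0.47 without tumour 330. Tnmd, tenomodulin of tendon cells, was 4.75 to 5.99 in the Ckm-high set and 6.74, 5.02, 12.16, 5.54 and 5.06 in the Ckm-low set, so that tumour 330 alone had an abundant level. The Tnmd difference of -1.49 became -0.18 without tumour 330, and Scx, the other tendon gene below 0, had -0.44. Of 6 peripheral nerve genes 0 were called and the median was 0.09.

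In the bone, cartilage and fibrous matrix lists only Prg4 was called. Cilp, the called matrix gene described above, stood in none of these lists. Col1a1, the main collagen of bone, was 13.96, 13.88, 14.00, 14.04 and 13.97 in the Ckm-high tumours and 13.95, 13.91, 13.93, 14.11 and 13.92 in the Ckm-low tumours, with a difference of 0.01 (95% confidence interval -0.20 to 0.21), and of -0.06 with quantile-normalised arrays. Of 11 genes of osteoblast identity 0 were called, with a median of 0.19. Sp7, the osteoblast transcription factor osterix, was 10.47, 10.99, 10.59, 9.91 and 9.96 in the Ckm-high tumours and 10.73, 10.50, 6.86, 10.25 and 10.54 in the Ckm-low tumours, and Ibsp, bone sialoprotein, was 11.81, 12.64, 11.84, 12.51 and 10.61 in the Ckm-high tumours and 11.44, 10.56, 4.73, 13.04 and 12.26 in the Ckm-low tumours. The low mean of the Ckm-low set came from tumour 330 alone: the differences of 0.61 and 1.47 became -0.12 and 0.06 without it. Of 7 genes of mineralisation and osteocytes 0 were called, and the median of 0.59 became -0.02 without tumour 330. Of 16 fibrous matrix genes 0 were called, with a median of 0.27, and of 10 cartilage genes 1, Prg4, with a median of 0.17.

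Blood, vessel and immune markers held no call either, as most lists this short would at the 0.621% of all genes called higher. The median difference was 0.22 for 16 macrophage genes, -0.03 for 15 endothelial genes and 0.12 for 8 osteoclast genes. C1qa, a complement subunit made by macrophages, was 11.69, 11.08, 11.26, 11.20 and 9.24 in the Ckm-high tumours and 10.39, 10.26, 11.13, 11.25 and 10.16 in the Ckm-low tumours, a difference of 0.25 (95% confidence interval -0.63 to 1.13), and its interval spans levels from somewhat lower to about 2-fold higher. Of 12 smooth muscle and pericyte genes the 1 call was Des, which also stands in the Z disc list, and the median was -0.02. Tagln, a calponin-like protein of smooth muscle, was 6.43, 7.11, 6.47, 7.63 and 5.30 in the Ckm-high tumours and 8.52, 7.39, 11.78, 7.53 and 6.73 in the Ckm-low tumours. It was highest in tumour 330, and the difference of -1.80 became -0.95 without it. Acta2, smooth muscle actin, had a difference of -1.38, or -0.96 without tumour 330, and neither gene was called.

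No gene was called lower in the Ckm-high tumours. The genes with the most negative differences were Saa3, an acute phase protein, at -2.25 (95% confidence interval -5.65 to 1.15), and Myl9, the regulatory light chain of smooth muscle and non-muscle myosin, at -1.97 (95% confidence interval -2.97 to -0.97). Myl9 was 6.91 to 8.79 in the Ckm-high set, lowest in tumour 12, and 10.29, 9.52, 11.03, 9.24 and 9.40 in the Ckm-low set. All 5 Ckm-high tumours lay below all 5 Ckm-low tumours, and the limma adjusted p was 0.107, or 0.283 without tumour 330. All 18 mitosis genes tested had negative differences, from -0.74 to -0.06 with a median of -0.36, and all 11 interferon response genes did, from -0.98 to -0.16 with a median of -0.58, or -0.18 without tumour 330, and none was called. The mean level of the interferon genes ranged from 5.63 to 7.53 in the Ckm-high set and from 5.50 to 8.31 in the Ckm-low set, and that of the mitosis genes from 7.16 to 9.27 and from 8.04 to 8.95.

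The 80 genes were then followed in the samples outside both sets. These were not independent of the choice: the middle tumours entered the spread estimate of the fit, and all arrays entered the filter and the choice of probe sets. With only the 10 compared tumours in the fit limma called 70 genes higher, 68 of them among the 80. The number of the 80 that stood above the highest of the 5 Ckm-low tumours was 64 in middle tumour 176, 65 in 87, 54 in 188, 40 in 64 and 28 in 353, and 14 to 20 in the osteoblast cultures. It was 4 to 6 in the 4 secondary tumours. Among the cell lines it was 9 in line 176, 61 in line 179, 53 in line 182 and 34 in line 213. The same count over all 12886 genes was not taken, so these counts have no background beside them and only describe the arrays. The middle tumours were placed by Ckm itself, so the way their counts grade along the ranking restates that choice and is no support. The secondary tumours, 2 of which carry the numbers of Ckm-high primaries, had counts nearer to the Ckm-low tumours than to the Ckm-high tumours.

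**Figure D4:**
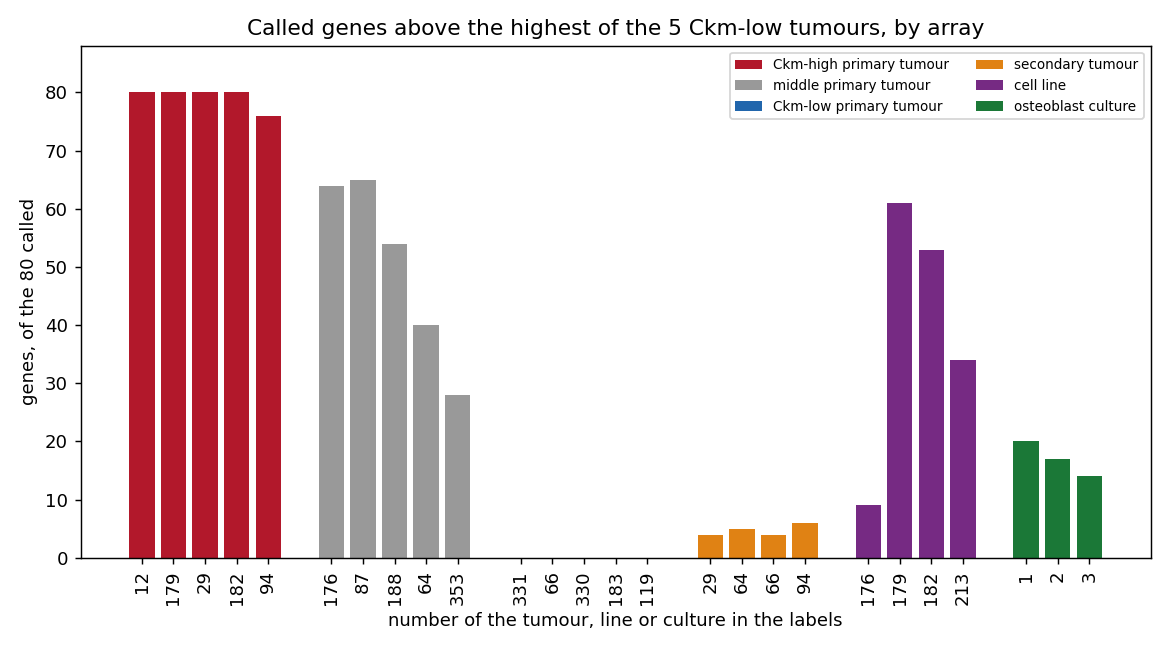
Number of the 80 called genes whose level lies above the highest of the 5 Ckm-low tumours, 1 bar per array, with arrays grouped by kind. The count is 0 for the Ckm-low tumours by construction and 80, or 76 in tumour 94, for the Ckm-high tumours. It is 4 to 6 in the secondary tumours and 9 to 61 in the cell lines. The same count over all genes was not taken.

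Secondary tumour 29 was lower than primary tumour 29 by more than 2-fold for 78 of the 80 genes, with a median difference of -3.50, against 3.64% of all genes. Secondary tumour 94 was lower than primary tumour 94 for 66 of the 80, with a median of -1.67, against 1.66% of all genes. For numbers 64 and 66, which primary tumours of the middle and the Ckm-low set also carry, 29 and 17 of the 80 were lower, with medians of -0.80 and -0.28, against 2.06% and 1.72% of all genes. Tnnc2, for example, was 11.30 in primary tumour 29 and at the floor in secondary tumour 29. Genes chosen for being high in a tumour tend to be lower in any other sample, so these counts are a description, and each rests on 1 pair of arrays with no replicate check.

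The cell lines numbered 179 and 182, which share their numbers with Ckm-high primary tumours, held part of the pattern in a different mix. Line 179 was lower than primary tumour 179 by more than 2-fold for 42 of the 80 genes and higher for 12, against 10.9% of all genes lower and 9.23% higher. Line 182 was lower than primary tumour 182 for 56 of the 80 and higher for 4, against 10.2% of all genes lower and 7.81% higher. The count of higher genes was thus above the share of all genes in line 179 and below it in line 182. Tnnc2 was 11.56 in line 179 against 11.74 in primary tumour 179, whereas Myh2 was 4.16 against 12.23 and Pvalb 6.26 against 9.45. Of the 18 embryonic and regenerating muscle genes, 9 were higher and 2 lower by more than 2-fold in line 179 than in primary tumour 179, and 7 were higher and 4 lower in line 182 than in primary tumour 182. Myod1 was 9.40, 9.58 and 9.69 in lines 179, 182 and 213 and at the floor in line 176, and Myh3 was 10.82, 9.78 and 6.07 in the first 3. In the 15 primary tumours Myod1 stayed at or below 5.36.

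Against the osteoblast cultures, the Ckm sets gave different pictures of muscle genes. Both comparisons share the 3 cultures, so their values are only set side by side. The cultures also stood apart in their control transcripts, with bioB to bioC ratios of 0.444 to 0.477 beside bioD 5′ to 3′ ratios of 0.640 to 0.671, a pairing found on no tumour array. Their array medians were 46.4 to 48.2, and 22.3% to 23.3% of their values lay at the floor, so the kind of sample and the control set cannot be told apart in these comparisons. The Ckm-high tumours had 998 genes (7.74%) higher and 1499 (11.6%) lower than the cultures, and of the 101 adult muscle genes 55 were higher and 6 lower with a median of 1.50. The Ckm-low tumours had 689 genes (5.35%) higher and 1534 (11.9%) lower, and of the 101 adult muscle genes 3 were higher and 10 lower with a median of 0.13. Those 3 were Myh2, Ankrd23 and Srl, a calcium-binding protein of the sarcoplasmic reticulum, with differences of 2.03, 1.33 and 1.60. Actn3 was 6.99 to 7.40 in the cultures, 8.11 to 9.27 in the Ckm-high tumours and 3.64 to 5.38 in the Ckm-low tumours, so that it was lower in the latter than in the cultures, by a difference of -2.71. Prg4 and Cilp were 9.95 to 10.35 and 10.72 to 11.08 in the cultures, above every primary tumour. Of 16 macrophage genes, 16 were higher than in the cultures in the Ckm-high tumours and 15 in the Ckm-low tumours.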

How the data were processed

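Transcript levels of 26 mouse samples were deposited as 1 linear intensity for each of 45101 probe sets, 64 of them controls. Per the labels' protocols, RNA was purified with Trizol and QIAGEN columns, primed at its poly(A) tail, transcribed to biotinylated cRNA and read in 1 colour. How the authors summarised, background-corrected and scaled the deposited intensities is not given in the sources used here. Array medians of 50.4 to 58.8 among the primary tumours were close, and no scaling was added.

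Names came from the platform's annotation, updated by gene identifier through RefSeq's gene table of GRCm38.p6: 34945 probe sets had 1 symbol, 932 several and 9224 none. Before log2, dim intensities were set to a floor of 12.5, the 20th percentile (3.64 on the log2 scale), which held 18.6% to 20.1% of a primary tumour's values. Probe sets brighter than the overall median on at least 3 arrays were kept, and the brightest kept one stood for its gene, giving 12886 genes besides Ckm.

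The 15 primary tumours were fitted in limma 3.58.1 (R 4.3.3) as 3 levels of Ckm rank, testing the highest 5 minus the lowest 5 with Benjamini-Hochberg adjustment over all genes. Differences from osteoblasts come from a limma fit of all 26 arrays. Simulated data had the same layout and 12886 genes, but independent normal values, no floor and sets that no gene's rank had chosen. There limma called 100 of 100 genes changed by 3 on the log2 scale, 85 of 100 changed by 1.5, and 3 unchanged ones. Errors from choosing the sets by a gene's rank were not simulated. Precision is limited by the number of arrays.

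The rule for names took the 12 called genes with the largest rise or fall whose sets do not overlap, a fixed list, and up to 4 members of each gene list with the largest difference. Called genes outside the lists, and further list members, were named after their values were seen. The tumour sets and the 33 gene lists (405 of 494 genes tested) were chosen with earlier results of these data known. Other floors, filters, scalings, set sizes, covariates and each tumour left out in turn were tried.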

Additional observations from a re-analysis of the deposited data

Results flagged for a closer look

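Within each set of 5 tumours, the gap between the highest or the lowest tumour and its nearest neighbour was compared with the whole range of the set, for 138 genes and 276 sets of values. Of these, 30 had a tumour set apart beyond the 95% limit. Chance gives about 1 in 20 for independent normal values. Genes of 1 list vary together and some values lie at the floor, so the count is not a test. All values are log2 intensities.

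Tumour 183 of the Ckm-low set was apart 8 times, each time as the highest: 12.13 for S100a8 (nearest other tumour 6.86) and 12.13 for S100a9 (nearest other tumour 6.16), calcium-binding proteins of neutrophils, 10.27 for Cd14 (nearest other tumour 7.93), a receptor of macrophages, 7.69 for Dcstamp (nearest other tumour 5.96), an osteoclast fusion protein, 7.67 for Ankrd2 (nearest other tumour 5.11), 7.05 for Prg4 (nearest other tumour 5.18), 14.11 for Col1a1 (nearest other tumour 13.95) and 3.88 for Adipoq (nearest other tumour 3.64). For Adipoq the other 4 Ckm-low tumours were all at the floor, so any value above it would be apart. Tumour 330 was apart 6 times. It was the highest at 12.16 for Tnmd (nearest other tumour 6.74), 7.74 for Cnn1 (nearest other tumour 4.59), calponin of smooth muscle, and 7.39 for Chrna1 (nearest other tumour 5.90), and the lowest at 6.86 for Sp7 (nearest other tumour 10.25), 7.42 for Alpl (nearest other tumour 11.86), the bone alkaline phosphatase, and 3.64 for Mymk (nearest other tumour 4.24), the fusion protein of muscle precursors. Tumour 331, the highest in Ckm of its set, was highest at 4.67 for Ckmt2 (nearest other tumour 3.92), 4.40 for Myf6 (nearest other tumour 3.83) and 3.72 for Myh4 (nearest other tumour 3.64), the last against tumours that were all at the floor.

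In the Ckm-high set, tumour 94 was lowest at 9.38 for Tnnc2 (nearest other tumour 11.30), 8.68 for Tnni2 (nearest other tumour 10.66), 9.13 for Ttn (nearest other tumour 10.71) and 9.24 for C1qa (nearest other tumour 11.08). Tumour 12 was highest at 7.27 for Adipoq (nearest other tumour 5.19) and, for 2 chains of MHC class II, 10.32 for H2-Aa (nearest other tumour 8.88) and 9.32 for H2-Eb1 (nearest other tumour 7.81). Tumour 182 was highest at 5.73 for Myh3 (nearest other tumour 4.18) and lowest at 12.00 for Col6a1 (nearest other tumour 13.18) and 11.52 for Col6a2 (nearest other tumour 12.94), both collagen VI chains. Tumour 29 was highest at 10.40 for Alas2 (nearest other tumour 5.57), an enzyme of haem synthesis in red cells, and 6.48 for Cdc6 (nearest other tumour 4.79), a replication factor, and tumour 179 at 5.12 for Mymk (nearest other tumour 4.49).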

How the results depend on the processing

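Of the 80 genes, each of those tested kept a positive difference under every alternative except Sel1l3, whose difference was -0.40 without a filter on dim probe sets, where another probe set stood for the gene. The count of 80 was 57 to 96 under the alternatives that used both control sets of arrays, and 69 to 96 with 1 tumour left out. The 57 came from a filter at the 75th percentile, under which only 57 of the 80 were tested and all 57 stayed called. Within the smaller control set limma called 0 genes higher, 0 of them adult muscle genes, and within the larger 40, of which 33 were adult muscle genes. These fits hold fewer tumours. The count of 0 genes lower became 2 with all 26 arrays in the fit, 1 with 7 tumours a set, 1 with 4 a set and 0 to 1 with 1 tumour left out, among them Fdft1 of sterol synthesis, Myl9 and Pafah1b3. The cause was not tested. Genes of lists other than muscle numbered 2, against 0 without the filter on dim probe sets, 0 with only the 10 compared tumours in the fit, 4 with array weights, 0 within each control set, and 0 to 3 with 1 tumour left out. Fabp4 passed with array weights (adjusted p 0.0343 in limma) and on a slope over Ckm in 15 tumours (0.0436), where Myod1 passed too (0.0282). Differences of genes at the floor are bounds. No paired analysis was possible because each tumour is in only 1 of the compared sets and its number is shared only with cell lines or secondary tumours.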
